A study of Oryctolagus cuniculus with 6 samples.

Results

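Genes of cholesterol synthesis and of the SREBP2 pathway that controls it were examined in RNA-seq data of rabbit limbal stem cells (LSCs). The genes were chosen by name, as HMGCS1, IDI1, FDFT1, SQLE, LSS, DHCR7, SREBF2 and INSIG1. Of these 8 genes, 6 were found in the count table of 22190 genes under their symbol. IDI1 was found through its NCBI gene identifier as LOC100343510, which RefSeq names IDI1, and DHCR7 was matched by neither route and was not analysed here. All 7 genes found passed the filter on low counts, which kept 15029 genes. The cells were primary outgrowths of explants from the rabbit limbus, the tissue at the rim of the cornea, and there were 3 fresh and 3 preconditioned libraries. Corneas of the preconditioned group were frozen in liquid nitrogen for 7 days in a cryomedium that held 10 ng/mL IL-1β, an inflammatory cytokine, and the outgrowing cells of limbal explants were then grown in keratinocyte medium. The effects of the freezing and of IL-1β cannot be told apart, since no group had only one of them. The strain, age and sex of the rabbits, and which animal each library came from, are not stated in the sources used here, so that the p values measure the spread between these libraries.

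Cholesterol is built from acetyl-CoA through mevalonate, the isoprenoid diphosphates, squalene and lanosterol. When sterols in the membrane of the endoplasmic reticulum are low, the protein SCAP carries the precursor of SREBP2 to the Golgi, where it is cut by proteases and released to switch on genes of sterol synthesis and uptake. INSIG proteins hold SCAP and SREBP2 back when sterols are plentiful. Growing epithelial cells need cholesterol for new membranes, and in stratified epithelia it is also a lipid of the surface barrier.

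The libraries held 31952352 to 34327534 counts on genes. TMM factors, which scale libraries to each other, were 1.06 to 1.07 for fresh and 0.914 to 0.965 for preconditioned libraries. Levels below are CPM, the count of a gene divided by the TMM-scaled total of its library and put on a common scale. On the first principal component, preconditioned replicate 1 lay at 8.13, between the fresh libraries (−53.1 to −41.1) and the other preconditioned libraries (58.3 and 70.4). The epithelial keratin KRT5 was the most abundant of the limbal and basal epithelial markers, and 7 of 8 of these markers were in the table. Their summed level was 10052 to 12247 CPM in fresh and 9454 to 13462 CPM in preconditioned libraries, most of it KRT5. None of the 7 was called by edgeR or DESeq2. Without overlap, 2 were higher and 1 lower, 3 of 7 against 36.7% of all tested genes. By DESeq2's adjusted p alone 3 were higher, PAX6 (log2 fold change 0.81), ITGB4 (0.63) and EPCAM (0.50), and TP63 was lower (−0.77), against 9.68% and 9.43% of all genes. The median log2 fold change of the 7 was 0.18. Of the listed markers of differentiated cornea, 2 of 4 were in the table and summed to 1454 to 4128 CPM in fresh and 707 to 1488 CPM in preconditioned libraries, with TKT called lower. The 5 listed markers of cycling cells summed to 419 to 599 CPM in fresh and 141 to 385 CPM in preconditioned libraries, with 0 of 5 called by edgeR and 3 of 5 called lower by DESeq2, which called 4.17% of all genes lower. Stromal fibroblast markers summed to 529 to 1144 CPM in fresh and 1298 to 2321 CPM in preconditioned libraries, and 1 of the 10, COL1A1, was called (higher). Without COL1A1 the sums were 472 to 1035 and 778 to 1629 CPM and overlapped, with 5 of the 9 remaining markers above and 4 below 0 in log2 fold change. The part of cycling and of stromal cells in the results below was not tested. In bulk libraries, fewer cells of a type and less RNA per cell cannot be told apart.

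None of the 7 genes was differentially expressed between the groups. A gene was called when its adjusted p (edgeR's quasi-likelihood test over all 15029 genes, Benjamini-Hochberg method) was 0.05 or less and its log2 fold change, preconditioned against fresh, was 1 or more in size, the cutoffs of the study. Of all tested genes 2.29% were called, 1.08% higher and 1.2% lower. On the adjusted p alone again 0 of 7 passed, against 5.08% of all genes (2.88% higher and 2.2% lower). DESeq2 also called 0 of 7, against 7.78% of all genes (3.62% higher and 4.17% lower), and had 0 of 7 on its adjusted p alone, against 19.1% (9.68% higher and 9.43% lower). At an unadjusted p under 0.05 there were 2, LSS and SREBF2, both lower, against 30.6% of all genes (15.5% higher and 15.1% lower). The log2 fold changes of the 7 genes ran from −0.49 to 0.36, with 3 above and 4 below 0 and a median of −0.01. Over all tested genes the median was 0.01. Of the 7 genes 2 showed no overlap between groups, both lower in the preconditioned group, where 36.7% of all tested genes did not overlap with 18.8% separated as lower and 17.9% as higher.

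**Figure D1:**
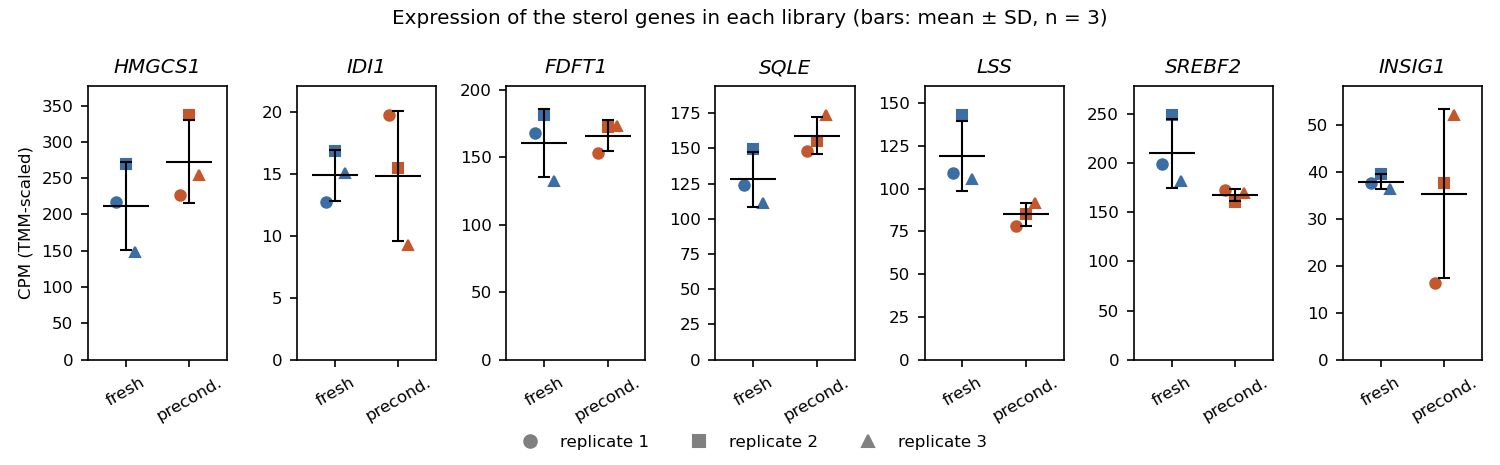
CPM of the 7 sterol genes (vertical axes from 0, TMM-scaled) in the 3 fresh (blue) and 3 preconditioned (orange) libraries, with bars for the mean ± SD. LSS and SREBF2 are lower in every preconditioned library than in every fresh library, the other 5 genes overlap, and INSIG1 is low in preconditioned replicate 1.

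HMGCS1 makes HMG-CoA, an early intermediate of the mevalonate pathway. Its level was 217, 269 and 149 CPM in fresh replicates 1, 2 and 3 and 226, 337 and 255 CPM in preconditioned replicates 1, 2 and 3. The groups overlapped, since preconditioned replicates 1 and 3 lay below fresh replicate 2. The means were 212 ± 60.2 and 273 ± 57.3 CPM (SD, n = 3 each), which is a log2 fold change of 0.36 with a standard error (SE) of 0.24 (edgeR adjusted p = 0.34). It was 0.57 without fresh replicate 2, 0.16 without fresh replicate 3 and 0.19 without preconditioned replicate 2. The difference of the means was about as large as the SD within each group.

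IDI1 interconverts the isoprenoid building blocks isopentenyl and dimethylallyl diphosphate. Its locus LOC100343510 had 12.7, 16.8 and 15.1 CPM in fresh replicates 1 to 3 and 19.7, 15.4 and 9.28 CPM in preconditioned replicates 1 to 3. The highest and the lowest library were thus both preconditioned, and the log2 fold change was −0.01 (SE 0.28, edgeR adjusted p = 0.99). A further locus in the table, LOC100346274, has the same description, isopentenyl-diphosphate Delta-isomerase 1, and was singled out after its values were seen. It had 9.24, 9.56 and 6.53 CPM in fresh replicates 1 to 3, against 2.22, 2.08 and 2.24 CPM in preconditioned replicates 1 to 3. Every preconditioned library lay below every fresh one, and the locus was differentially expressed, with a log2 fold change of −1.95 (SE 0.25, edgeR adjusted p = 0.022). That call was lost when fresh replicate 1 or 2 or preconditioned replicate 2 or 3 was left out, with edgeR adjusted p values of 0.106, 0.0998, 0.107 and 0.0605, while the log2 fold change stayed between −2.11 and −1.86. LOC100346274 made up 30.3% to 42.0% of the counts of both loci in the fresh libraries and 10.1% to 19.4% in the preconditioned libraries. Whether both loci are near-identical, and how the counting assigned reads between them, was not tested, so the level of each locus is uncertain. With the counts of both loci summed, an alternative chosen after seeing the data, the log2 fold change was −0.46 (SE 0.24, edgeR adjusted p = 0.24).

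**Figure D2:**
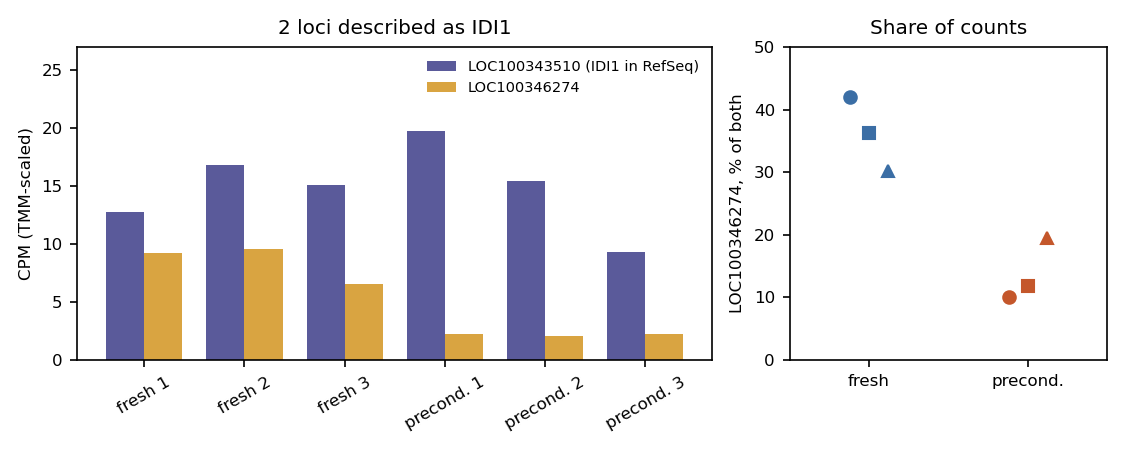
Left, CPM of the 2 loci described as isopentenyl-diphosphate Delta-isomerase 1 in each library (bars from 0). Right, the percentage of their summed counts that fell on LOC100346274, 30.3% to 42.0% in fresh and 10.1% to 19.4% in preconditioned libraries.

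FDFT1, squalene synthase, joins farnesyl diphosphate molecules and commits the pathway to sterols. It had 168, 181 and 132 CPM in fresh replicates 1 to 3 and 153, 172 and 173 CPM in preconditioned replicates 1 to 3. The preconditioned libraries all lay within the range of the fresh ones, and the log2 fold change was 0.05 (SE 0.14, edgeR adjusted p = 0.84). With library size alone as the scaling it was −0.12, a shift that the median of all tested genes shared (0.01 to −0.16).

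SQLE, squalene epoxidase, is the first oxygen-using step and is regarded as a further control point of the pathway. It had 124, 149 and 111 CPM in fresh replicates 1 to 3 and 148, 155 and 173 CPM in preconditioned replicates 1 to 3. Only preconditioned replicate 1 fell within the fresh range, just under fresh replicate 2. The means were 128 ± 19.5 and 159 ± 12.9 CPM (SD, n = 3 each), which is a log2 fold change of 0.31 (SE 0.14, edgeR adjusted p = 0.17).

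LSS, lanosterol synthase, closes the sterol rings and had the lowest adjusted p of the 7 genes. It had 109, 143 and 106 CPM in fresh replicates 1 to 3 and 78.1, 85.3 and 91.7 CPM in preconditioned replicates 1 to 3. All preconditioned libraries lay below all fresh ones. The means were 119 ± 20.6 and 85.0 ± 6.77 CPM (SD, n = 3 each), which is a log2 fold change of −0.49 (SE 0.15, edgeR adjusted p = 0.081 and 0.053 from DESeq2).

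SREBF2 encodes SREBP2, the transcription factor of the pathway, and is one of its own targets. It had 199.8, 249 and 182 CPM in fresh replicates 1 to 3 and 172, 160.2 and 169.9 CPM in preconditioned replicates 1 to 3. The groups did not overlap, with a narrow gap between fresh replicate 3 and preconditioned replicate 1. The means were 210.1 ± 34.8 and 168 ± 6.40 CPM (SD, n = 3 each), and the log2 fold change was −0.33 (SE 0.14, edgeR adjusted p = 0.16), and −0.19 without fresh replicate 2 (edgeR adjusted p = 0.41). For LSS and SREBF2 the exact, 2-sided permutation p was 0.1, the smallest that 3 libraries against 3 allow.

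INSIG1 holds SCAP in the endoplasmic reticulum and is itself induced by SREBP2. It had 37.6, 39.6 and 36.4 CPM in fresh replicates 1 to 3 and 16.2, 37.6 and 52.0 CPM in preconditioned replicates 1 to 3. The fresh libraries lay close together (37.9 ± 1.61 CPM, SD, n = 3), whereas the preconditioned ones spread on both sides of them (35.3 ± 18.0 CPM, SD, n = 3). The log2 fold change was −0.10 (SE 0.37, edgeR adjusted p = 0.88), and its sign rested on preconditioned replicate 1, without which it was 0.23 (edgeR adjusted p = 0.30).

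Levels of different genes were compared by the deposited FPKM, which is per length. In the fresh group the order of mean FPKM was FDFT1 (74.6 ± 11.5), SQLE (65.2 ± 9.84), HMGCS1 (63.6 ± 18.0), SREBF2 (47.9 ± 7.89), LSS (31.3 ± 5.42), INSIG1 (13.0 ± 0.534) and IDI1 (8.05 ± 1.13; SD, n = 3 each). Neighbours in this order overlapped from FDFT1 down to SREBF2, whereas LSS, INSIG1 and IDI1 each lay below every library of the gene before. In the preconditioned group HMGCS1 (72.6 ± 13.1), SQLE (72.1 ± 6.20) and FDFT1 (68.6 ± 3.70) overlapped at the top, and SREBF2 (34.0 ± 2.23) lay below all libraries of these 3 genes. LSS followed at 19.9 ± 1.54, and INSIG1 (10.8 ± 5.49) and IDI1 (7.13 ± 2.60) overlapped. The highest mean FPKM was 9.27 times the lowest among fresh and 10.2 times among preconditioned libraries. The place of IDI1 depends on which loci are counted. With the FPKM of both of its loci added, an alternative chosen after seeing the data, IDI1 had 13.6 ± 1.57 in fresh and 8.41 ± 2.60 in preconditioned libraries (SD, n = 3 each), and overlapped with INSIG1 in both groups. The highest mean FPKM was then 5.47 times that of IDI1 among fresh and 8.63 times among preconditioned libraries.

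A ratio of counts within a library does not depend on how libraries are scaled. The counts of the other 6 genes were therefore divided by those of SREBF2, a choice made after the values were seen and given without a test. SREBF2 was itself lower in every preconditioned library, so a gene at an equal level in both groups has a higher ratio there. Of all other tested genes, 31% had a ratio to SREBF2 that was higher in every preconditioned than in every fresh library, and 5.56% one that was lower. The log2 ratio of HMGCS1 to SREBF2 was 0.12, 0.11 and −0.29 in fresh replicates 1 to 3 and 0.39, 1.07 and 0.58 in preconditioned replicates 1 to 3, so that every preconditioned library was higher. For SQLE the ratio was −0.69, −0.74 and −0.71 in fresh replicates 1 to 3 and −0.22, −0.04 and 0.03 in preconditioned replicates 1 to 3. The fresh values of SQLE lay within a narrow range (SD 0.02) and the mean was 0.64 higher in the preconditioned group. The ratio of FDFT1, whose own log2 fold change was 0.05, was also higher in every preconditioned library, with a mean difference of 0.37. The ratio of LSS was lower in every one, with a mean difference of −0.16. IDI1 and INSIG1 overlapped.

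**Figure D3:**
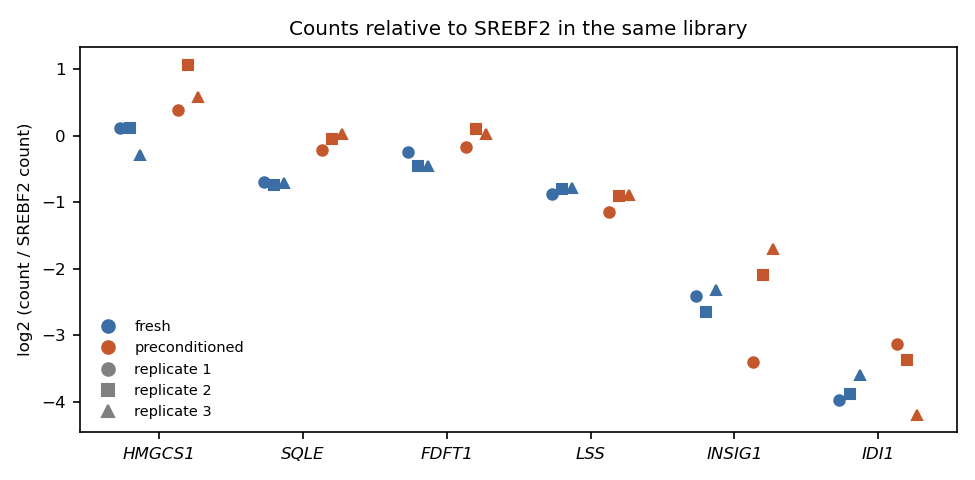
Log2 ratio of each gene's count to the SREBF2 count of the same library, with fresh libraries in blue and preconditioned libraries in orange. HMGCS1, SQLE and FDFT1 are higher relative to SREBF2 in every preconditioned library, LSS is lower in each, and INSIG1 and IDI1 overlap, where 31% of all tested genes are higher in this way.

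The order of the libraries within each group was also compared. Fresh replicate 2 was the highest of the 3 fresh libraries for all 7 genes, and for 11 of 15 other sterol synthesis genes (73.3%), against 29.4% of all tested genes. Fresh replicate 3 was the lowest for 6 of the 7 genes and for 8 of the 15 (53.3%), against 36.4% of all tested genes. In the preconditioned group, replicate 1 was the lowest for 5 of the 7 genes but for 4 of the 15 (26.7%), against 39.3% of all tested genes. It was the highest for 2 of the 7 and for 8 of the 15 (53.3%), against 39.6%. Preconditioned replicate 3 was the highest for 4 of the 7 and for 2 of the 15 (13.3%), against 33.9%, and the lowest for 1 of the 7 and for 8 of the 15 (53.3%), against 33.4%. The genes of a pathway are not independent of each other, and these counts are given without a test.

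The other genes of sterol synthesis were taken as a list of 15. None passed both cutoffs, and CYP51A1 alone passed on the adjusted p (edgeR, 5.08% of all tested genes). CYP51A1, found as LOC100355623, removes the 14-methyl group of lanosterol, the step right after LSS. It had 172, 173 and 168 CPM in fresh replicates 1 to 3 and 263, 356 and 255 CPM in preconditioned replicates 1 to 3. The fresh libraries were nearly equal and every preconditioned library was above them. CYP51A1 rose by 0.77 on the log2 scale (1.70-fold, SE 0.15, edgeR adjusted p = 0.041). The adjusted p was 0.014 without preconditioned replicate 1 and 0.078 to 0.149 when any one of the other 5 libraries was left out.

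Of the 15 genes, 6 had log2 fold changes above and 9 below 0, and their median was −0.07. There was no overlap between groups for 3 higher and 5 lower genes (36.7% of all tested genes in either direction). By its adjusted p alone DESeq2 had 3 of them higher and 3 lower, against 9.68% and 9.43% of all genes, and it called 0 of 15 with the fold cutoff. The higher ones besides CYP51A1 were MSMO1 and SC5D, named after their values were seen. MSMO1, the oxidase that starts removal of the 4-methyl groups, averaged 225 ± 45.9 CPM in fresh and 355 ± 25.3 CPM in preconditioned libraries (SD, n = 3 each, log2 fold change 0.65, edgeR adjusted p = 0.060). A locus without a symbol and with the description of MSMO1 held 28.9% to 34.5% of the counts of both, and their sum had a log2 fold change of 0.66. SC5D, a late desaturase, had 80.8 ± 6.47 and 121 ± 17.7 CPM (SD, n = 3 each, log2 fold change 0.59, edgeR adjusted p = 0.0525).

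The 3 genes lower in DESeq2 were LBR, ERG28 and MVD, which had the largest negative values of the list. LBR, a sterol reductase that is also a protein of the nuclear envelope, had 147, 138 and 140.3 CPM in fresh replicates 1 to 3 and 98.4, 64.4 and 50.2 CPM in preconditioned replicates 1 to 3. Its log2 fold change was −0.998 (SE 0.23, edgeR adjusted p = 0.054). TM7SF2, the other reductase of the same reaction, had 6.23, 9.73 and 5.11 CPM in fresh replicates 1 to 3 and 4.81, 7.83 and 9.08 CPM in preconditioned replicates 1 to 3 (log2 fold change 0.044). ERG28, a scaffold of the C4 demethylation enzymes, had a log2 fold change of −0.80 (SE 0.21, edgeR adjusted p = 0.062). MVD, which makes isopentenyl diphosphate, had a log2 fold change of −0.75 (SE 0.23, edgeR adjusted p = 0.084). For LBR, ERG28 and MVD every preconditioned library lay below every fresh one.

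**Figure D4:**
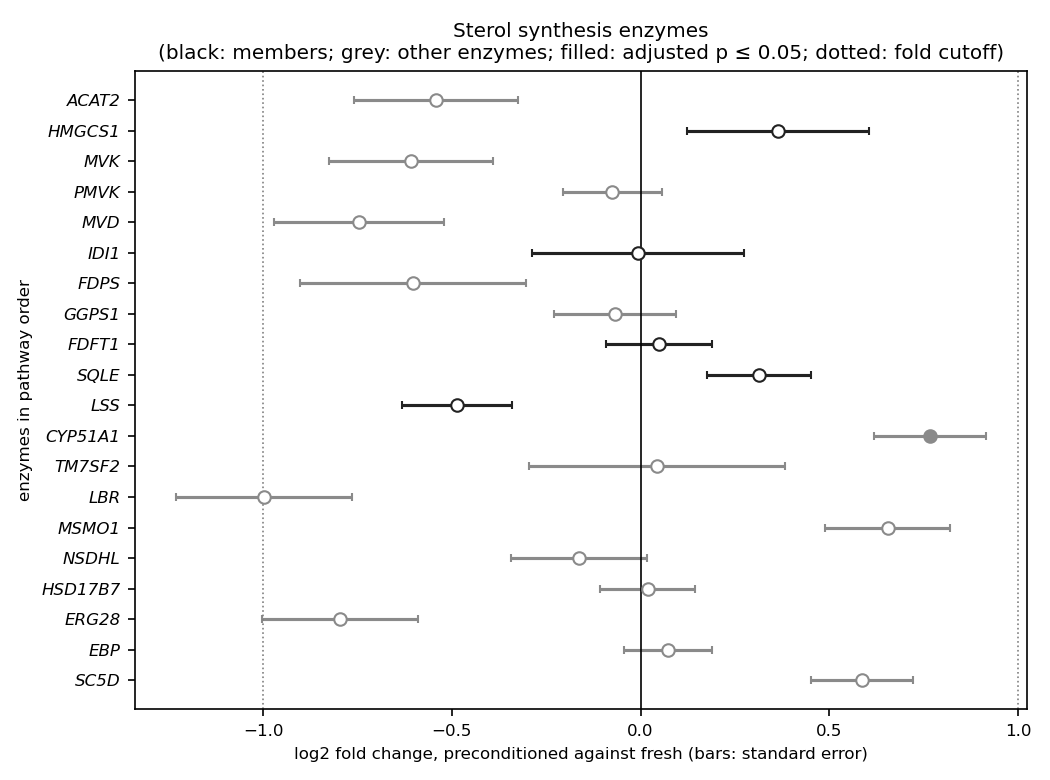
Log2 fold change, preconditioned against fresh, with its standard error for 20 sterol synthesis genes, from top to bottom in pathway order. Black marks are HMGCS1, IDI1, FDFT1, SQLE and LSS, grey marks the 15 other genes, and the only filled mark, CYP51A1 at 0.77, passes on edgeR's adjusted p.

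Genes that process SREBP proteins or control their stability were a list of 13, of which 0 were called by edgeR and 0 passed on its adjusted p. At an unadjusted p under 0.05 there were 2 higher and 4 lower, against 15.5% and 15.1% of all tested genes. SREBF1, the gene of SREBP1, which acts mainly on fatty acid synthesis, had 72.2, 86.1 and 80.9 CPM in fresh replicates 1 to 3 and 60.3, 40.6 and 49.5 CPM in preconditioned replicates 1 to 3. The groups did not overlap, and the log2 fold change was −0.67 (SE 0.16, edgeR adjusted p = 0.055). MBTPS1, the Golgi protease that makes the first cut in SREBP, had a log2 fold change of −0.62 (edgeR adjusted p = 0.088). ERLIN2, which takes part in the degradation of proteins of the endoplasmic reticulum, averaged 83.3 ± 0.591 CPM in fresh and 62.8 ± 2.09 CPM in preconditioned libraries (SD, n = 3 each). Its log2 fold change was −0.41 (SE 0.091, edgeR adjusted p = 0.0505), just outside the cutoff. MARCHF6, a ubiquitin ligase that acts on SQLE, had 165, 150.2 and 163 CPM in fresh replicates 1 to 3 and 185, 212 and 234 CPM in preconditioned replicates 1 to 3, a log2 fold change of 0.40 (edgeR adjusted p = 0.084). In this list 3 genes were higher and 6 lower without overlap, against 17.9% and 18.8% of all tested genes, and the median log2 fold change was −0.05. By its adjusted p alone DESeq2 had 3 lower, SREBF1, MBTPS1 and ERLIN2, against 9.43% of all genes.

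Of the sterol uptake and transport genes, 14 of 15 were in the table and 0 were called by edgeR or passed on its adjusted p, with 6 at an unadjusted p under 0.05, against 30.6% of all tested genes. MYLIP, a ubiquitin ligase induced by LXR receptors, had 18.5, 19.5 and 29.5 CPM in fresh replicates 1 to 3 and 21.1, 46.8 and 108 CPM in preconditioned replicates 1 to 3. Its preconditioned libraries spread widely and overlapped with the fresh ones, and the log2 fold change was 1.39 (SE 0.56, edgeR adjusted p = 0.15), and 0.60 without preconditioned replicate 3. NPC1, which moves cholesterol out of lysosomes, averaged 65.7 ± 14.8 CPM in fresh and 126 ± 35.4 CPM in preconditioned libraries (SD, n = 3 each), without overlap (log2 fold change 0.94, SE 0.25, edgeR adjusted p = 0.066). GRAMD1B, a sterol carrier between the plasma membrane and the endoplasmic reticulum, had 2.84 to 7.87 CPM in fresh and 1.61 to 2.81 CPM in preconditioned libraries, a log2 fold change of −1.24 (edgeR adjusted p = 0.111) that was −0.77 without fresh replicate 2. LIPA, the lysosomal acid lipase that frees cholesterol from its esters, had 16.5, 36.4 and 26.5 CPM in fresh replicates 1 to 3 and 14.5, 20.6 and 13.4 CPM in preconditioned replicates 1 to 3, so that the groups overlapped (log2 fold change −0.71, SE 0.31, edgeR adjusted p = 0.17). Without fresh replicate 2 its log2 fold change was −0.41. Without overlap, 1 gene of the list was higher and 3 were lower, 4 of 14 against 36.7% of all tested genes, and the median log2 fold change was 0.10. With DESeq2, 1 gene (MYLIP) was called higher and 1 (GRAMD1B) lower, against 7.78% of all genes in either direction. On DESeq2's adjusted p alone 2 were higher, MYLIP and NPC1, and 1 lower, GRAMD1B, against 9.68% and 9.43% of all genes.

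Of 14 genes of sterol efflux, esterification and the LXR receptors, which sense oxysterols, 13 were in the table. None of the 13 was called by edgeR, and 1, higher, passed on the adjusted p (2.88% of all tested genes). This was NR1H2, the gene of LXRβ. It had 32.7, 35.3 and 32.4 CPM in fresh replicates 1 to 3 and 44.1, 58.2 and 58.6 CPM in preconditioned replicates 1 to 3, a rise of 0.68 on the log2 scale (SE 0.14, edgeR adjusted p = 0.045). The adjusted p was 0.00538 without preconditioned replicate 1 and 0.107 to 0.158 without any one of the others. The LXR targets ABCA1 and ABCG1, exporters of cholesterol, had log2 fold changes of −0.15 and −0.12, and their groups overlapped. So did those of SMPDL3A (0.44), LPCAT3 (−0.34) and APOE (−0.90). MYLIP of the transport list, also induced by LXR receptors, had a log2 fold change of 1.39. Except for MYLIP, these genes were named after their values were seen. CH25H, SOAT1 and CYP7B1 had the largest values among the rest (1.21, −1.13 and −0.97) at mean levels under 4 CPM in each group, with adjusted p values of 0.15 to 0.34. For SOAT1, which esterifies cholesterol, a locus with the same description held most of the counts of both, 58.6% to 92.9%, and their sum had a log2 fold change of 0.24. CH25H makes an oxysterol from cholesterol, and CYP7B1 (LOC100343291) hydroxylates oxysterols. The log2 fold change of CH25H was −0.039 without preconditioned replicate 2. That of CYP7B1 was −1.75 without preconditioned replicate 2 and −0.54 without preconditioned replicate 3, and that of SOAT1 was −0.66 without fresh replicate 1. Without overlap, 1 gene of the list was higher and 1 lower, 2 of 13 against 36.7% of all tested genes, and the median log2 fold change was −0.15. On DESeq2's adjusted p alone 1 gene, NR1H2, was higher and 0 were lower, against 9.68% and 9.43% of all genes.

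Of 13 genes of fatty acid synthesis and related SREBP targets, 11 were in the table. None of the 11 was called by edgeR, and 1, lower, passed on the adjusted p (2.2% of all tested genes). This was ELOVL6, which elongates fatty acids and is a target of SREBP1. It had 73.7, 72.6 and 67.1 CPM in fresh replicates 1 to 3 and 48.0, 32.5 and 38.3 CPM in preconditioned replicates 1 to 3. It fell by 0.85 on the log2 scale (SE 0.16, edgeR adjusted p = 0.039). The adjusted p was 0.00452 without preconditioned replicate 1 and 0.0937 to 0.145 without any one of the others. ACACA, the carboxylase that starts fatty acid synthesis, averaged 146 ± 19.1 CPM in fresh and 81.6 ± 22.6 CPM in preconditioned libraries (SD, n = 3 each), for a log2 fold change of −0.84 (SE 0.21, edgeR adjusted p = 0.0575). ACLY, which makes cytosolic acetyl-CoA for fatty acids and sterols, had 55.1 to 67.6 CPM in fresh and 43.0 to 47.1 CPM in preconditioned libraries, a log2 fold change of −0.47 (edgeR adjusted p = 0.060). The groups did not overlap for ELOVL6, ACACA and ACLY, 3 of 11 against 36.7% of all tested genes, and overlapped for the 8 others, among them the desaturase FADS2 (log2 fold change −0.48, edgeR adjusted p = 0.49, and −0.82 to −0.21 on leaving out a library). These 3 genes were also lower by DESeq2's adjusted p alone, against 9.43% of all genes. The median of the list was −0.19.

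**Figure D5:**
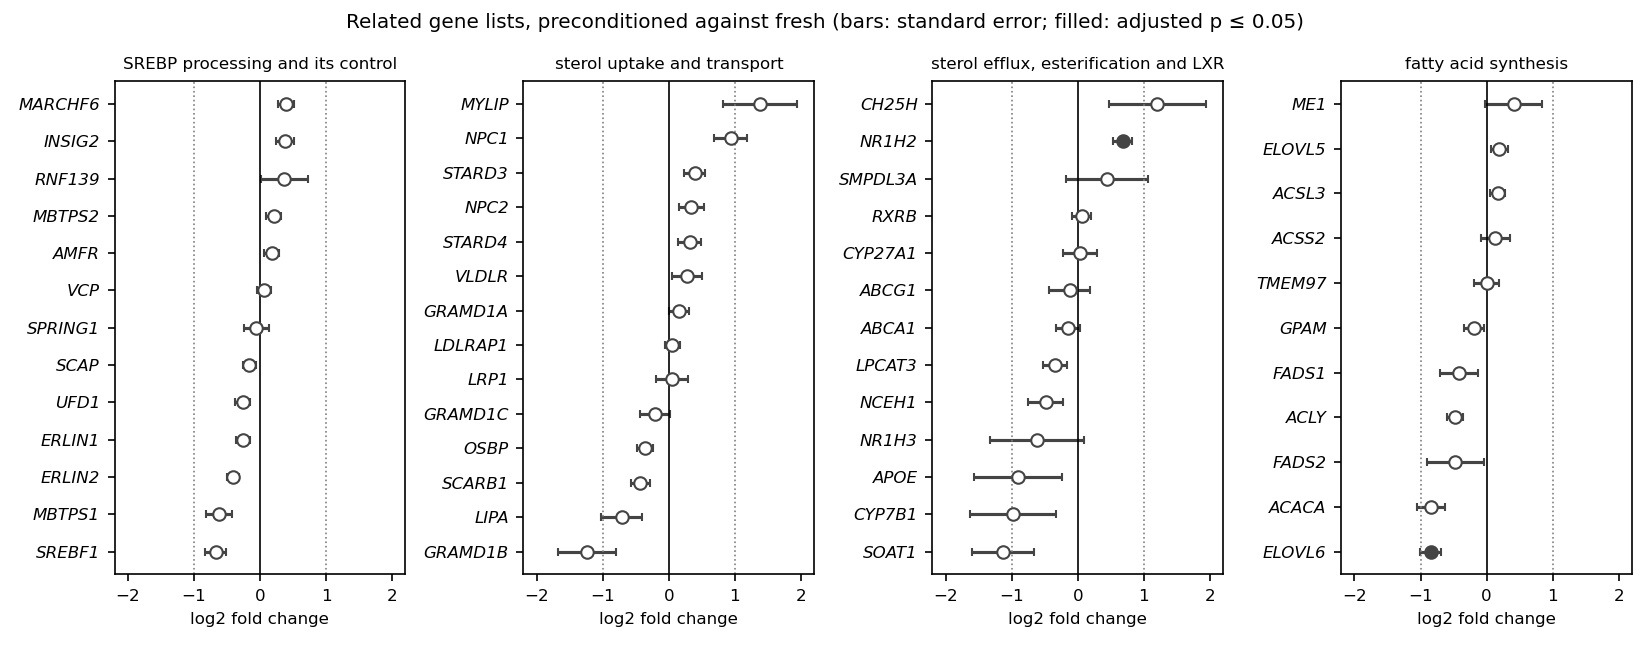
Log2 fold change, preconditioned against fresh, with its standard error for the measured genes of 4 related lists, each sorted by value. Filled marks, NR1H2 at 0.68 and ELOVL6 at −0.85, pass on edgeR's adjusted p, and dotted lines mark the fold cutoff of 1 on the log2 scale.

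The median log2 CPM of the 7 genes, centred on each gene's mean over the 6 libraries, was 0.05, 0.19 and −0.04 in fresh replicates 1 to 3 and −0.09, 0.09 and 0.09 in preconditioned replicates 1 to 3. The 7 genes make up this profile, so their own distance from it is partly built in. As a root mean square difference on the log2 scale, it ran from 0.105 (FDFT1) to 0.460 (INSIG1). INSIG1 and IDI1 (0.382) lay above the median of all tested genes (0.343), and the others below it. Outside the lists, 14922 genes were compared with the profile in the same way over 6 libraries. The 5 with the smallest difference were REXO2 (0.0546), CLSTN1 (0.0567), FOXO1 (0.0614), GBF1 (0.0643) and TBC1D12 (0.0646), all with log2 fold changes between −0.09 and −0.01.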

How the data were processed

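RNA-seq was performed on 3 fresh and 3 preconditioned libraries. The authors aligned reads with hisat2 2.1.0, counted them with htseq-count 0.11.2 and deposited raw counts per gene and FPKM values. Genome build, annotation and strand setting are not given in the sources used here, so no coordinates or sequences are shown. Every column was assigned to a sample. Of the 22190 genes, 19462 matched a RefSeq table of the assembly mOryCun1.1 by identifier.

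edgeR 4.0.16 in R 4.3.3 was used for the counts (filterByExpr, TMM, robust quasi-likelihood test with condition only), with Benjamini-Hochberg adjustment over 15029 genes and standard errors from the F statistic. Alternatives were DESeq2 1.42.0, other scalings and filters, a block for replicate numbers, omission of single libraries, limma 3.58.1 on log2(FPKM + 1) and log2(FPKM + 0.1), no fold cutoff and summed copies. log2 CPM used a prior count of 2. Libraries held at least 31952352 counts, and genes with few counts (CYP7B1 down to 8, CH25H to 18, SOAT1 to 32, GRAMD1B to 53 in a library) also carry counting error. The test was checked on simulated counts.

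The genes and lists were chosen with earlier results of these data known. Named were the 7 genes, in each list those with an adjusted p of at most 0.05, filled up to 4 by absolute log2 fold change, and the 5 genes with the most similar profile, besides TM7SF2 and others said in the text to be named after their values were seen. From the lists, 3 genes are not reported here and enter no list count or figure, which was decided after the results had been seen and for a reason unrelated to their values. Markers of conjunctiva, melanocytes, immune cells and endothelium were also listed. None of them was called by edgeR, DESeq2 called CD68 (immune cells) higher, and PMEL, MLANA, TYR, CD3E and the goblet cell mucin locus LOC100356613 had at most 3 counts in every library.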

Additional observations from a re-analysis of the deposited data

How the results depend on the processing

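The number of differentially expressed sterol genes was 0 of 7 under all 16 alternatives. When libraries were scaled by their size alone, the median over all tested genes went from 0.01 to −0.16 on the log2 scale, that of the 7 genes was −0.17, LSS had an edgeR adjusted p of 0.042 (log2 fold change −0.66), and 142 genes were called higher and 423 lower in place of 163 and 181. Over the genes tested, 344 calls became 1190 with DESeq2, 565 with library size alone, 521 with log2(FPKM + 0.1), 763 without the fold cutoff and 14 to 1546 when a library was left out. Higher genes made up 47.4% of the calls, but 56.7% without the fold cutoff, 31.2% to 61.1% on leaving out a library, 29.2% with log2(FPKM + 1) and 23.6% with log2(FPKM + 0.1), where LSS had an adjusted p of 0.0503 and 0.0491 in limma. The median of the 7 genes was −0.20 with log2(FPKM + 1) and −0.23 with log2(FPKM + 0.1).

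With the replicate number as a block, 30 genes were called over all and 0 of the 7 genes. None was called in the lists of sterol synthesis, SREBP processing, transport, efflux and fatty acid synthesis. LOC100346274 was no longer called (log2 fold change −1.93, edgeR adjusted p = 0.076). Same-numbered libraries did not deviate together (correlations across genes −0.067, −0.073 and −0.109). These values cannot decide whether the numbers pair the libraries, since the animal behind each library is not stated. CYP51A1, NR1H2 and ELOVL6 then had edgeR adjusted p values of 0.095, 0.103 and 0.087, with log2 fold changes of 0.75, 0.67 and −0.86 in place of 0.77, 0.68 and −0.85.

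In place of 0, other sterol synthesis genes had 1 call with library size alone, without a filter, with either FPKM scale and without the fold cutoff, and 0 to 1 when a library was left out. Uptake and transport had 2 calls with DESeq2 and 0 to 2 when a library was left out. Efflux had 1 without the fold cutoff. Fatty acid synthesis had 2 with library size alone and with log2(FPKM + 0.1), 1 without the fold cutoff, and 0 to 2 when a library was left out. The higher counts on leaving out a library came without preconditioned replicate 1. Of 527 values of 33 named genes under the alternatives, 17 turned in sign, none of them called. FDFT1 was −0.12 with library size alone, along with the median of all genes, and −0.11 with either FPKM scale, and SOAT1 was 0.24 with copies summed. On leaving out a library, the log2 fold change was −0.076 to 0.14 for FDFT1, −0.28 to 0.24 for IDI1, −0.49 to 0.23 for INSIG1, −0.039 to 1.65 for CH25H, −0.059 to 0.059 for REXO2, −0.081 to 0.033 for CLSTN1, −0.081 to 0.040 for FOXO1 and −0.11 to 0.038 for TBC1D12. The cause of these changes was not tested. A planned search for motifs in promoters was not run, since no sequence was at hand.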
